A study of Caenorhabditis elegans with 2 samples.

Results

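The genes described here are 8 members of the HSP70 family of Caenorhabditis elegans, F44E5.4, F44E5.5, hsp-70, hsp-1, hsp-3, hsp-4, hsp-6 and hsp-110, out of 19973 protein-coding genes on the 6 nuclear chromosomes. They were chosen by name, with the peak that these data hold between F44E5.4 and F44E5.5 already known, so every value of the family is a description and no test is made on it. The data come from chromatin immunoprecipitation followed by sequencing (ChIP-seq), which maps where a protein sits on DNA. There was 1 group of 2 biological replicates, both whole midembryos of 3 hours from strain RW12224, obtained by egg bleaching. In this strain CRISPR had inserted TY1, EGFP and 3xFLAG into ref-1 at its own locus on chromosome II, and the antibody recognised GFP. REF-1 is a transcription factor related to the HES proteins. Whole embryos mix all cell types, so a peak may come from any of them. Embryos with and without heat were not compared here, nor were untagged embryos.

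HSP70 proteins bind exposed stretches of unfolded proteins and release them in a cycle driven by ATP, helped by J-domain proteins and by nucleotide exchange factors. Worms have separate members for the cytosol, the endoplasmic reticulum and mitochondria. Some are made at all times, while others are switched on by heat through the heat-shock factor HSF-1, which binds heat-shock elements, runs of short GAA units in alternating orientation. F44E5.4 and F44E5.5 are heat-inducible cytosolic members, as is hsp-70. In the comparison below, the members not classed as heat-inducible are hsp-1, hsp-3, hsp-4, hsp-6 and hsp-110. They are called constitutive here, although hsp-4 is also known to rise under stress of the endoplasmic reticulum and hsp-6 under stress of mitochondria.

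The shared upstream DNA of F44E5.4 and F44E5.5 is shown because it carried the only peak of the family in the thresholded peak sets. The lines for hsp-1, hsp-3 and hsp-4 show, for contrast, the DNA at the candidates that came closest. All are forward-strand sequence of the WBcel235 assembly (ce11 coordinates). The first line is the whole peak, chrII:11759337-11759612. The others are the longest stretch without exons within 100 bp of the candidate's summit, chrIV:17278503-17278698, chrX:6092125-6092224 and chrII:7353144-7353344. Capitals mark matches of the heat-shock element pairs GAANNTTC and TTCNNGAA and of the HES-type site CACGCG, on either strand.
F44E5.4 and F44E5.5: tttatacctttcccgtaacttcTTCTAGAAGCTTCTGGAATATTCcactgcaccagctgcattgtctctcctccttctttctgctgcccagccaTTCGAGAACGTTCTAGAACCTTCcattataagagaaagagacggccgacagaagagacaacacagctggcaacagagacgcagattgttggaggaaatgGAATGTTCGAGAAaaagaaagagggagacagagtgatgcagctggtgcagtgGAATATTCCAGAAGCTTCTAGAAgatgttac
hsp-1: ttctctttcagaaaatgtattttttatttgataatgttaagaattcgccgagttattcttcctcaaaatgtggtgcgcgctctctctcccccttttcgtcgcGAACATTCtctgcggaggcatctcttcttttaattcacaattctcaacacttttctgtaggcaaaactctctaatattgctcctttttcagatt
hsp-3: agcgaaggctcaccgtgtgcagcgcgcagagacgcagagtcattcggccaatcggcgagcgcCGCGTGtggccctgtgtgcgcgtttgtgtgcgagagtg
hsp-4: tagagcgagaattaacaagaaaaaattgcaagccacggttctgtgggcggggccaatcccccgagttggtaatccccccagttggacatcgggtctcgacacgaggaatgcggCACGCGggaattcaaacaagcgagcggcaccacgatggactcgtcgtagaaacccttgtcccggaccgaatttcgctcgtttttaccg

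The line of F44E5.4 and F44E5.5 holds 4 blocks of heat-shock units. Blocks of 5 units lie 94 and 22 bp to the F44E5.4 side of the summit. On the F44E5.5 side, a block of 3 units lies 55 bp and a block of 5 units 107 bp from the summit. The summit itself, at 11759475, falls between the inner blocks. Each outer block lies close to the gene on its side, 48 bp from the start of F44E5.4 (block 1) and 58 bp from the start of F44E5.5 (block 4). The arrangement is close to an inverted repeat: when the 350 bp between the genes were divided at the middle into stretches of 175 bp and one was read on the other strand, 132 of 160 aligned bases (82.5%) were identical.

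Both genes of the pair encode the same protein. F44E5.4 (WBGene00009691, II, 11757107 to 11759311, reverse strand) and F44E5.5 (WBGene00009692, II, 11759662 to 11761861, forward strand) have coding sequences of 1935 bp that are 100% identical, each encoding 645 residues. Only 1.84% of the 36-mers in F44E5.4 and 2.08% of those in F44E5.5 occur once in the genome. Between the genes 86.7% do, and inside the peak 94.2% do. The peak therefore lies on DNA to which short reads can mostly be assigned, which does not hold for the gene bodies on both sides. The sources used here do not give how reads with several positions were treated, and if they were left out, a peak inside either gene may not have been detectable. Over the whole windows of F44E5.4 and of F44E5.5, 11.1% of 36-mers occur once. In the windows of the other 6 members, 98.3% to 100% of 36-mers occur once.

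**Figure D1:**
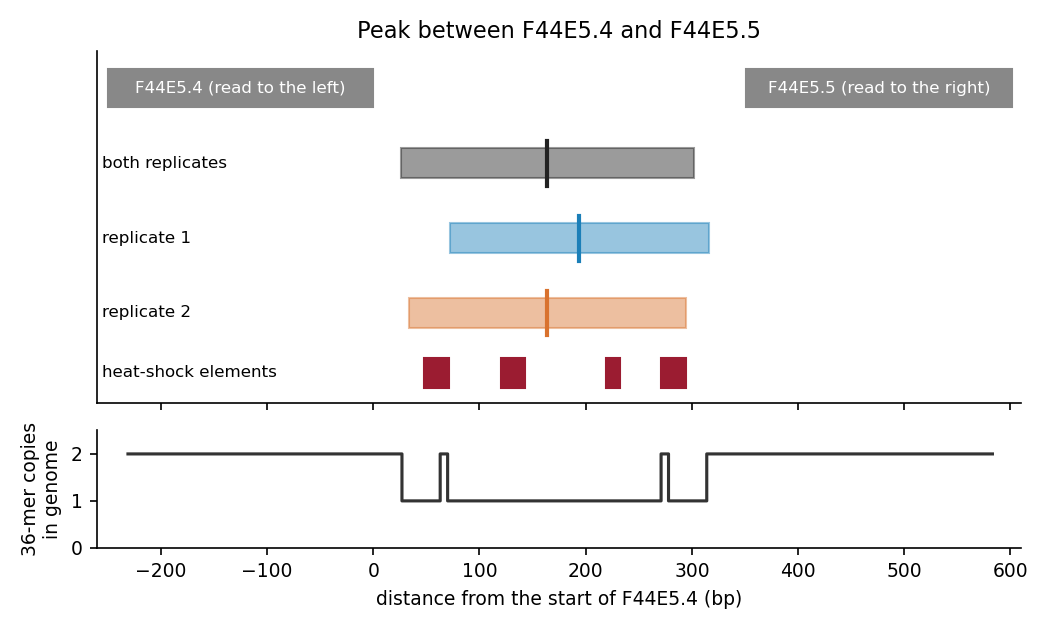
Map of the DNA between F44E5.4 and F44E5.5, with distance from the start of F44E5.4 in bp on the horizontal axis. Upper panel: coloured bars are the deposited peak of the pair of replicates and of each replicate, with the summit as a vertical line, and dark red bars are the 4 blocks of heat-shock units. The replicate 1 summit lies 30 bp to the right of the other summits. Lower panel: number of places in the genome that hold the 36-mer centred at each position, 1 over most of the interval and 2 in the genes.

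The divergent pair was the only place in the family with a peak past the authors' threshold. For each gene, summits were taken from 2000 bp upstream to 500 bp downstream of any transcript start. The deposited score of a peak comes from the irreproducible discovery rate (IDR), which measures how well peaks keep their rank between 2 inputs, and peaks of the thresholded sets scored at least 830 out of 1000. In the conservative set of 675 peaks, F44E5.4 and F44E5.5 shared 1 peak with a signal of 102.6 and a score of 1000. The other 6 members had none there, nor in the 3 remaining thresholded sets. The signal was computed by the authors, its scale is not stated, and it serves here only to describe and order peaks within a list.

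The summit lay 164 bp upstream of the start of F44E5.4 and 187 bp upstream of that of F44E5.5, outside exons. It was 116985 bp from the nearest tRNA, snoRNA or snRNA gene. In the conservative set the peak ranked 336 of 675 by score and then signal, near the middle, against a median signal of 102.3 for the set. The highest score, 1000, was shared by 483 of the 675 peaks, so signal alone set the order among them. The same peak, with the same signal, was in the other thresholded set of the pair. Its global IDR was 0.0023, so it passed the authors' limit of 0.01 but not a limit of 0.001.

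The replicates differed at this peak. In the own ranked list of replicate 1 its signal was 37.25 with a score of 470, below the threshold. In that of replicate 2 the signal was 64.1 with a score of 1000. It was accordingly absent from the own thresholded set of replicate 1 and present in that of replicate 2. The mean was 50.7 ± 18.95 (SD, n = 2), and replicate 2 was 1.72 times replicate 1. Over the conservative set the median of this ratio was 1.18, with quartiles of 1.00 and 1.41, and 53 of 675 peaks (7.85%) had a ratio at least as high. Replicate 1 placed the summit 30 bp nearer to F44E5.5, at 194 bp from the start of F44E5.4, still between the inner blocks of heat-shock units.

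Constitutive members had only weaker candidates. The ranked list between replicates holds 72151 candidates, 649 of them with a score of 1000 and most far below the threshold. Its 2 inputs can be read as the replicates: 39887 candidates (55.3%) carried a first input equal in position and signal to an entry of replicate 1's own ranked list, and none of the first inputs equalled an entry of replicate 2. For the second input, 39929 (55.3%) equalled an entry of replicate 2 and none one of replicate 1. The best candidate of a gene is the one with the highest score in its window, with ties ordered by signal.

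hsp-1 (WBGene00002005, IV, 17278959 to 17281330), the constant cytosolic HSC70, came closest by score. Its best candidate, 361 bp upstream of the start, had a signal of 61.2, with 32.2 in replicate 1 and 33.7 in replicate 2. The score of 680 was the highest below the threshold in the family, and the global IDR was 0.0229. The replicate signals were close here, with a mean of 32.9 ± 1.04 (SD, n = 2). In the replicates' own ranked lists, which score other inputs, this candidate scored only 15 (replicate 1) and 34 (replicate 2).

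The endoplasmic reticulum members, hsp-3 and hsp-4, are the worm forms of BiP. The best candidate of hsp-3 (WBGene00002007, X, 6089028 to 6092124) lay at the outermost transcript start, in the 5′ UTR. Its signal was 69.6, the second highest of the family, with 37.2 in the first input and 29.2 in the second, and its score was 556. That second input had no equal entry in the own list of replicate 2. The best candidate of hsp-4 (WBGene00002008, II, 7350112 to 7352645), 599 bp upstream, had a signal of 58.8, with 33.2 in replicate 1 and 25.8 in replicate 2, and a score of 360. Both were higher in the first input than in the second, unlike the divergent pair. In the other ranked list of the pair, the hsp-3 candidate at the start kept its signal but scored only 58, and the best candidate of hsp-3 was the one 560 bp upstream.

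hsp-6 (WBGene00002010, V, 4824124 to 4826760), the mitochondrial member, and hsp-110 (WBGene00016250, III, 8443910 to 8446909), a larger relative that serves as a nucleotide exchange factor for HSP70, had the lowest signals and scores in the ranked list between replicates. The best candidate of hsp-6, 440 bp upstream, had a signal of 43.4, with 14.7 in replicate 1 and 27.4 in replicate 2, and a score of 76. Its replicate 2 value was 1.86 times that of replicate 1, a ratio above the 1.72 of the divergent pair. That of hsp-110, 425 bp upstream, had a signal of 51.8, with 32.2 in replicate 1 and 20.3 in replicate 2, and a score of 129. Their ranks in the list were 24624 and 11782, compared with 487 for the peak of the divergent pair and 1128 for hsp-1. These low ranks depended on the list and the ordering. Ordered by signal alone, hsp-6 ranked 10632 and hsp-110 ranked 4652. In the other ranked list of the pair, hsp-6 ranked 3791 with a score of 271 and hsp-110 ranked 1163 with a score of 645. That list has other inputs, 33.3 and 22.7 at hsp-6 and 31.7 and 33.5 at hsp-110.

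**Figure D2:**
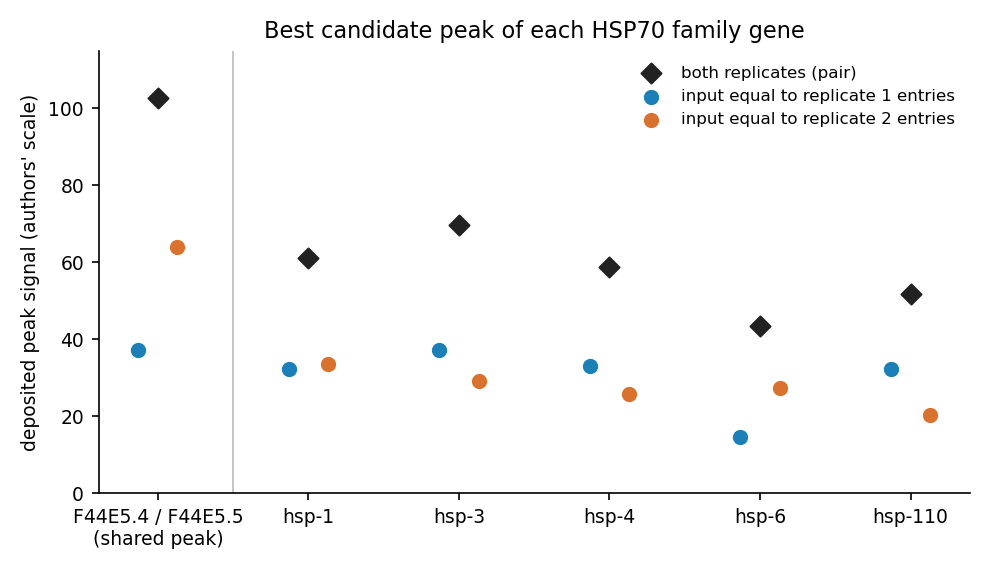
Deposited signal (vertical axis, authors' scale) of the best candidate of each gene in the ranked list between replicates. Diamonds are the value for the pair of replicates, blue and orange points the 2 inputs read as replicates 1 and 2. The shared peak of F44E5.4 and F44E5.5 stands at 102.6 against 43.4 to 69.6 for the constitutive members, while its replicate 1 value of 37.25 lies beside that of hsp-3. No candidate was listed for hsp-70.

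The difference in signal between the divergent pair and the constitutive members rested on replicate 2. In the list of the pair of replicates, the signal of F44E5.4 and F44E5.5 was 1.47 times the highest signal of any constitutive member in its window (102.6 against 69.6 at hsp-3). In the own list of replicate 2 the ratio was 1.60, with 64.1 at the divergent pair against 39.97 at hsp-1. In the own list of replicate 1 it was 1.00, with 37.25 against 37.19 at hsp-3. By score, the divergent pair was ahead in every ranked list. The score was 470 against 320 (hsp-110) in replicate 1, 1000 against 201 (hsp-6) in replicate 2, and 1000 against 725 (hsp-1) in the other ranked list of the pair.

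Below the divergent pair, the order of the constitutive members was not fixed by these data. By signal it ran hsp-3, hsp-1, hsp-4, hsp-110 and hsp-6, a scale with 1 value per candidate and hence no spread. The means of the inputs ran in the same order, and neighbours differed in these means by less than the larger of their SDs. The means of the inputs were 33.2 ± 5.66 for hsp-3, 32.9 ± 1.04 for hsp-1, 29.5 ± 5.20 for hsp-4, 26.2 ± 8.43 for hsp-110 and 21.1 ± 8.97 for hsp-6 (SD, n = 2 each). The other ranked list of the pair gave another order by score, running hsp-1 (725), hsp-110 (645), hsp-4 (274), hsp-6 (271) and hsp-3 (257).

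The third heat-inducible member, hsp-70 (WBGene00002026, I, 9320325 to 9322519), differed from the divergent pair although its protein is the most like theirs in the family. Of 643 aligned residues 563 (87.6%) are identical, compared with 70.9% for hsp-1, 58.3% for hsp-3, 58.7% for hsp-4, 49.8% for hsp-6 and 31.4% for hsp-110. No candidate was listed in its window in either ranked list of the pair or in that of replicate 2. Replicate 1 alone had a candidate, 455 bp downstream of the start in a coding exon, with a signal of 17.1 and a score of 20. That signal is under the median of 17.5 for all candidates of replicate 1. Every 36-mer of the hsp-70 window occurs once in the genome. The nearest peak of the conservative set lay 53570 bp away.

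Other candidates in the windows scored at most 534, and most of them lay in exons or introns of the members or their neighbours. The divergent pair had 1 candidate, hsp-1 had 3, hsp-3 had 8, and hsp-4, hsp-6 and hsp-110 had 4 each. Only 11.1% of the 36-mers in the windows of F44E5.4 and of F44E5.5 occur once, against 98.3% to 100% for the other members. The counts may therefore not be comparable. A median of 2 candidates was found per protein-coding gene, and 22.8% of genes had none. hsp-3 and hsp-4 have 3 transcript starts each, so their windows are wider. Some entries were not independent: at hsp-3 the candidates 560 and 762 bp upstream had signals of 57.3 and 2.07 with the same inputs, 31.97 and 29.8. At hsp-4 the same held for the candidates 372 and 163 bp downstream of the nearest start. The entry of the divergent pair shared its inputs with no other, whereas 46 of the 675 conservative peaks did so.

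**Figure D3:**
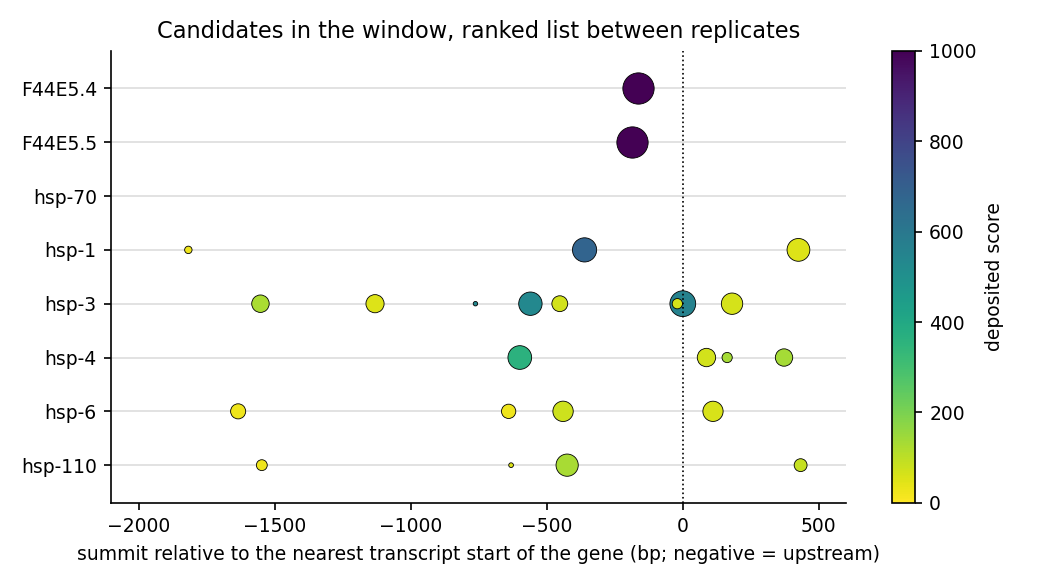
Position of every candidate of the ranked list between replicates in the window of each gene, as the distance of its summit from the nearest transcript start of that gene in bp. Circle area is proportional to the deposited signal and colour shows the deposited score. F44E5.4 and F44E5.5 show the same single peak, at 164 and 187 bp upstream, while hsp-70 has none.

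Among all protein-coding genes, the peak of the divergent pair stood farther into the upper tail than the constitutive candidates. A candidate in the window was listed for 15421 genes (77.2%), with a median best signal of 36.3 and quartiles of 28.7 and 45.9. A best signal of at least 102.6 was found for 254 of these genes (1.65%). The corresponding shares were 4.38% for hsp-3, 7.25% for hsp-1, 8.67% for hsp-4, 15.04% for hsp-110 and 30.4% for hsp-6. In the conservative set, 2.26% of protein-coding genes had a summit in the window, against 2 of the 8 family members, which share that summit. The share was 2.24% in the other thresholded set, again with 2 members. It was 1.1% in the own set of replicate 1, with no member, and 1.46% in that of replicate 2, with 2 members. Nothing is read from these counts, since the members were chosen with the peak known.

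**Figure D4:**
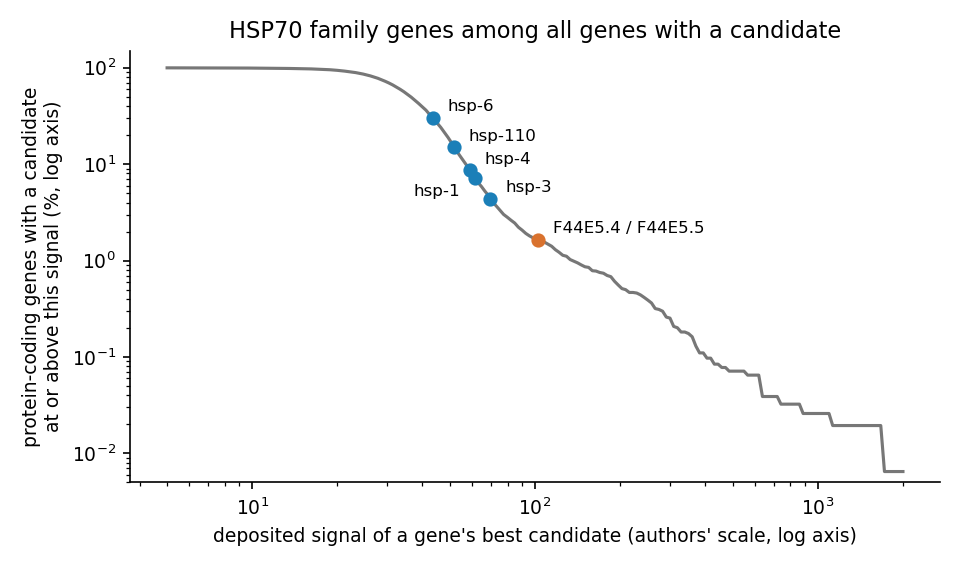
Share of protein-coding genes with a candidate (vertical axis, %, log scale) whose best candidate has at least the signal on the horizontal axis (authors' scale, log scale). Points mark the family members, with the peak of F44E5.4 and F44E5.5 in orange at 1.65% and the constitutive members in blue at 4.38% to 30.4%.

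Sequence at the candidates differed between the divergent pair and the constitutive members. hsp-70 had no candidate in the ranked list between replicates, so matches at this heat-inducible member were not counted. Within 100 bp of the shared summit there were 3 matches of GAANNTTC, 3 of TTCNNGAA and 4 of the form with 3 alternating units, which contains both. GAANNTTC was present in 13.2% and TTCNNGAA in 12.7% of 19973 windows of the same length centred 200 bp upstream of each gene. The 3-unit form was in 1.31% of those windows and in 2.22% of the 675 windows at conservative summits. At the constitutive members, hsp-1 had 1 match of GAANNTTC and the others had no heat-shock unit pair. CACGCG was absent from the window of the divergent pair and present once each at hsp-3, hsp-4 and hsp-6. It was in 12.59% of the conservative summit windows and in 3.54% of the upstream windows. The related CACNAG was present once at the divergent pair, hsp-4 and hsp-110 (31.9% of summit windows, 17.3% of upstream windows). CACGTG was in none of the windows (4.74% of summit windows, 3.33% of upstream windows), nor was TATAAA (13.04% and 25.04%), although TATAAA occurred beyond the window, 26 bp from the start of F44E5.4 and 36 bp from that of F44E5.5. GC content was 47.8% at the divergent pair, 37.8% at hsp-1, 62.2% at hsp-3, 55.2% at hsp-4, 43.3% at hsp-6 and 33.3% at hsp-110, against medians of 46.3% at conservative summits and 33.8% upstream of genes. A match is a stretch of letters and not a measured site.

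Other divergent gene pairs also had a conservative summit between their starts. The shares below are of gene pairs and not of peaks. Of 2464 neighbouring protein-coding gene pairs that start away from each other within 2000 bp, 54 (2.19%) had a conservative summit between their starts. For the 897 pairs within 500 bp, as F44E5.4 and F44E5.5 are, it was 17 (1.90%). By signal the peak of F44E5.4 and F44E5.5 was number 32 of the 54. The strongest were at K12H4.6 with K12H4.5 (624.9), mlcd-1 with idhg-1 (364.5) and lev-9 with mom-1 (353.2), the last at a tRNA gene. Likeness was measured as the distance between the log2 signals of the 2 inputs, over the 450 other genes with a conservative summit in the window. The nearest were Y70C5A.3 (V, 16621955 to 16622230, signals 39.5 and 65.6, at a tRNA gene, distance 0.0909) and cdk-9 with hxk-2, which share a peak (I, 11323235 to 11323510, signals 34.3 and 68.7, distance 0.156). Likeness over 2 replicates says only that these values are close.

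Genes that work with HSP70, or in other chaperone systems, had a conservative summit at close to the share of all protein-coding genes. Of 87 such genes found in the annotation, in 9 lists, 2 had a conservative summit in the window (2.30%, against 2.26% of all protein-coding genes). They were dnj-29, a J-domain protein gene (signal 120.6, with 56.4 and 55.1 in the inputs), and atf-6, a transcription factor of the unfolded protein response (signal 88.7, with 44.3 and 47.7). The other thresholded set added dnj-28 (88.6) and the neighbours hsp-60, the mitochondrial chaperonin gene, and Y22D7AL.10, also in the chaperonin list, which share a peak (70.6). That set thus held 5 of the 87, where 2.24% of all protein-coding genes had a summit. The own set of replicate 1 held 0 (1.1% of all protein-coding genes) and that of replicate 2 held 1, dnj-28 (1.46%).

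None of the 12 small heat-shock protein genes had a summit in any of the 4 thresholded sets. With 2.26%, 2.24%, 1.1% and 1.46% of all protein-coding genes having one in these sets, a count of 0 in a list of this size or smaller shows nothing particular to it. The heat-inducible hsp-16.1, hsp-16.2, hsp-16.41 and hsp-16.48 had best candidates with signals of 39.8, 6.27, 43.5 and 56.9 and scores of at most 193. The share of 36-mers that occur once was not computed for the windows of the small heat-shock protein genes. Whether a peak at their starts could have been detected was therefore not tested, and the lack of a summit is not read as a lack of binding. hsf-1 itself had a best candidate of 25.8 with a score of 25. The other HSP70 superfamily genes (0 of 4), HSP90 with its co-chaperones (0 of 9), nucleotide exchange factors and HSP70 regulators (0 of 5), and prefoldin subunits (0 of 6) had no summit in any set. Of these lists the highest scores below the threshold were 665 at bag-1, 641 at pfd-1 and 611 at hsp-90. The median best signal was 47.5 for nucleotide exchange factors and HSP70 regulators, 42.99 for chaperonins, 42.7 for J-domain genes, 38.6 for prefoldin subunits and 37.9 for the HSP90 list. It was 35.7 for small heat-shock proteins, 35.6 for regulators of the unfolded protein response, 31.7 for the other HSP70 superfamily genes and 25.8 for heat-shock regulators, compared with 36.3 for all genes.

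**Figure D5:**
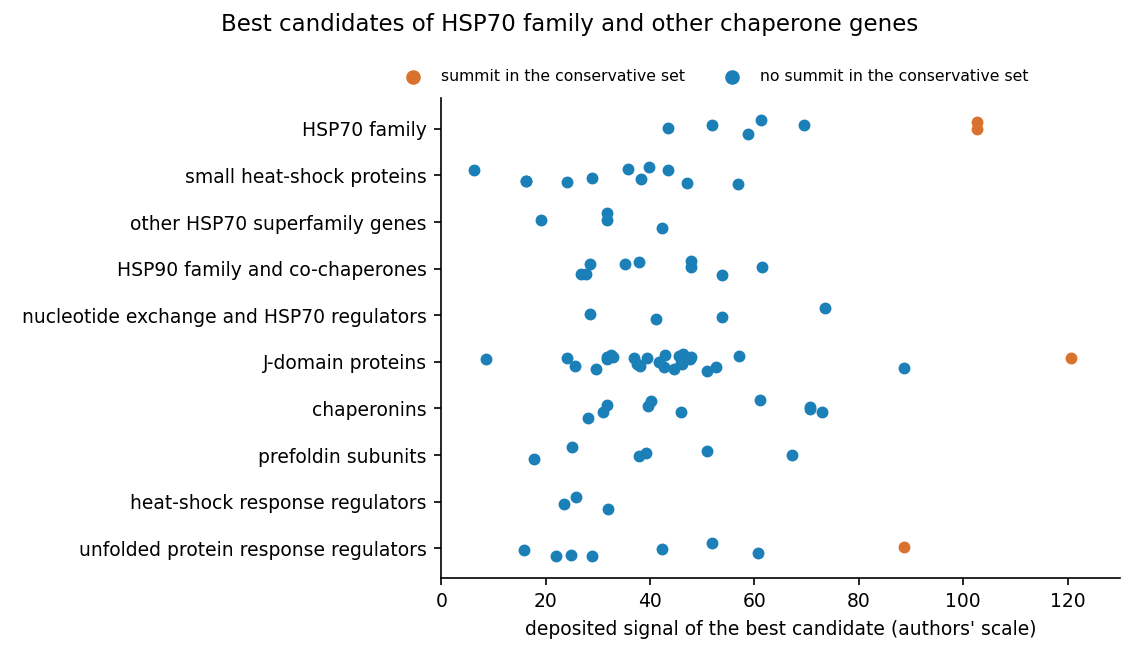
Deposited signal (horizontal axis, authors' scale) of the best candidate of each gene of the HSP70 family and of 9 other lists, each point a gene with a random vertical offset. Orange points are genes with a summit in the conservative set: F44E5.4 and F44E5.5 at 102.6, dnj-29 at 120.6 and atf-6 at 88.7.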

How the data were processed

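The deposited files are peak lists on ce11. Notes deposited with them name filtered alignments and a control file as their origin; the control was not analysed here. The sources used here do not give the aligner, the peak caller or library depth. Since the depth is unknown, counting intervals are left out. Each deposited peak has a score, which equals a transform of the global IDR, and a signal on the authors' own scale. The deposited ranked lists also give the −log10 of the global IDR. Of 855 candidates scoring at least 830 in the ranked list between replicates, 180 are not in the conservative set, none of them at a family member.

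Summits were assigned to Ensembl release 115 transcript starts (WBcel235) with Python 3.11.15 and pandas 2.3.3, and the assignment was checked on simulated data. Sequence came from the RefSeq genome of the same assembly, where all 8 coding sequences read through without internal stops. Proteins were aligned with Biopython 1.88. Heat-shock matches were searched on both strands.

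The members and lists were chosen with earlier results of these data known. The genes named are the members, the chaperone genes with a conservative summit (at most 4 per list), the 3 genes with the most similar inputs and the 3 strongest divergent pairs. Other chaperone genes were named after their values were seen. Of 95 symbols in the lists, 87 were in the annotation. Alternatives were the other sets and lists, other windows, a stricter IDR, any overlap and the nearest start.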

Additional observations from a re-analysis of the deposited data

How the results depend on the processing

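The count of 2 family genes with a peak stayed at 2 in the other thresholded set, with windows of 1000 and 200 bp or 500 and 100 bp, and when any base of the peak counted. It was 0 with a global IDR of at most 0.001, which kept 246 of the 675 peaks, and 1 when a summit counted only for the gene with the nearest start, up to 5000 bp away, since only 1 gene can then be nearest. With a single replicate's own set it ranged from 0 to 2. The ratio of the divergent pair's signal to the highest constitutive one ranged from 1.00 to 1.60 with a single replicate, against 1.47. The rank of the pair's peak was 486 in the other ranked list and 490 by signal, against 487. Its score was 1000 and its signal 102.6 in both ranked lists of the pair, and ties were ordered by signal. Signal thus set the ranks of 486, 490 and 487, and their closeness is not a separate check. In the shorter own lists the rank was 747 for replicate 1 and 408 for replicate 2. Ranks of some constitutive members, whose scores were below 1000, also differed. In the other ranked list, made from other inputs, hsp-3 ranked 4066 against 1487, hsp-6 3791 against 24624 and hsp-110 1163 against 11782. By signal hsp-6 ranked 10632 and hsp-110 4652. The cause was not tested. The share of all protein-coding genes with a summit was 2.24% in the other thresholded set and 0.786% at the stricter IDR, against 2.26%. It was 1.42% and 0.961% with the narrower windows, and 1.096% to 1.46% with single replicates. This share was not computed for any overlap or for the nearest start, so the family counts under those rules have no background beside them. The count of other chaperone genes was 5 in the other set, and 0 to 1 with single replicates, against 2. With 1 group there were no groups to pair. No paired analysis was possible because the study has 1 group.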

Other observations

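Some of the other conservative peaks with heat-shock units lay on repeats. Of the 675 summits, 15 had the form with 3 alternating units within 100 bp, 6 of them on tandem repeats and 9 not. At least 4 matches were found at 8 of the summits, compared with 5 of 19973 windows upstream of genes (0.025%). The windows of F44E5.4 and F44E5.5, which cover parts of the shared peak, are among those 5, so this DNA counts on both sides. All 6 on tandem repeats were among the 8 summits. A tandem repeat was defined by a self-match of at least 75% of bases after a shift of between 8 and 100 bp. The others among the 8 were the peak of F44E5.4 and F44E5.5 (4 matches, highest self-match 36.7%) and a peak on chromosome III. The latter lay at III, 3897533 to 3897808 (16 matches, self-match 64.6%, signal 56.3). It was close to a peak counted as on a tandem repeat, at III, 3897185 to 3897460 (23 matches, self-match 96.7%). Whether both lie on the same repeat was not tested. Among the 6 was the peak in the window of fezf-1 (21 matches, signal 102.8, self-match 96.9%), whose signal is close to that of the divergent pair. These peaks were singled out after their values were seen, and whether the repeats bear on their signal was not tested.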
